A study of Homo sapiens with 12 samples.

Results

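The multidomain BCL2 family was followed in T47D breast cancer cells through 8 genes, taken by symbol and matched 1 to 1 to the Ensembl identifiers of the count files, out of 57773 genes in the files. They are the 5 anti-apoptotic genes MCL1 (ENSG00000143384), BCL2L1 (ENSG00000171552), BCL2L2 (ENSG00000129473), BCL2 (ENSG00000171791) and BCL2A1 (ENSG00000140379), and the 3 pore-forming effectors BAX (ENSG00000087088), BAK1 (ENSG00000030110) and BOK (ENSG00000176720). T47D is an estrogen receptor-positive luminal line, and all 12 libraries came from cells with a doxycycline-inducible hairpin that targets PSMD2, which encodes part of the 19S cap of the proteasome. In the Lo19S state the hairpin had been induced with doxycycline at 0.2 µg/ml for 3 days, and in control cells it was left uninduced. After 24 h in medium without doxycycline, cells of each state received DMSO, the solvent, or 20 nM bortezomib, which blocks the catalytic core of the proteasome, for 16 h. This gave 4 groups of 3 libraries, namely control cells with DMSO, Lo19S cells with DMSO, control cells with bortezomib and Lo19S cells with bortezomib. Only Lo19S cells met doxycycline, so the drug and the hairpin cannot be told apart. The labels do not say whether the line is 1 clone, or whether replicate libraries are separate cultures, and the p-values therefore measure spread that may be technical.

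Proteins of the BCL2 family decide whether the outer membrane of mitochondria is breached, which releases cytochrome c and starts the caspase cascade. BAX and BAK, the products of BAX and BAK1, form the pore, BOK can do so with less dependence on the others, and the anti-apoptotic proteins hold them in check until BH3-only proteins such as NOXA and BIM displace them. MCL1 protein is short-lived and is itself removed by the proteasome, so its amount in cells given a proteasome inhibitor depends on turnover as well as on RNA. Here RNA alone was measured, by gene, so that splice forms with opposite roles, such as the long and short forms of BCL2L1 and MCL1, were counted together.

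Library totals ran from 7376597 to 15003480 counts. PSMD2 was at 392 to 417 CPM (counts scaled to library size with the trimmed mean of M-values, TMM) in control cells and 183 to 189 in Lo19S cells under DMSO, and at 1509 to 1528 against 539.6 to 546 under bortezomib, lower in every Lo19S library than in every control library of the same treatment. The third control DMSO library stood apart: set against the other two of its group, its counts gave chi-square over degrees of freedom of 3.98 and 4.36, where other replicate pairs gave 1.16 to 2.01. All 6 luminal epithelial markers were present in every group, with a summed level of 2700.0 to 5080.0 CPM that was lower in the bortezomib libraries, and lower in Lo19S (4355 to 4432) than in control cells (4920 to 5080.0) under DMSO. The summed level of 6 fibroblast markers, of which 3 had more than 3 counts in each bortezomib group, was 25.98 to 33.8 CPM under DMSO, 63.5 to 69.7 in control and 44.1 to 47.1 in Lo19S cells with bortezomib. That of the 5 endothelial markers found was at most 0.378 CPM. The part of these markers in the results was not tested. In bulk RNA, fewer cells of a type and less RNA per cell cannot be told apart. Calls rest on the quasi-likelihood test of edgeR at a Benjamini-Hochberg adjusted p under 0.05, adjusted over all 14714 genes that passed the filter on low counts. Values given as log2 are fitted log2 fold changes with their standard error (SE), and a 95% interval was computed from that SE.

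All 8 members passed the filter on low counts, BCL2A1 through bortezomib libraries only. In control cells under DMSO, levels per kilobase of annotated exon, the only scale on which different genes are compared here, were led by MCL1 at 81.4 ± 3.5 CPM per kb (SD, n = 3), followed by BCL2L1 at 50.9 ± 3.3. The effectors BOK (14.4 ± 0.56) and BAX (12.03 ± 0.90) came next, then BCL2L2 at 9.56 ± 0.85 and BAK1 at 6.65 ± 0.65. BCL2, the founding gene of the family, was far lower at 0.699 ± 0.050 CPM per kb, and BCL2A1 had no count. No neighbours in this order overlapped between libraries. In Lo19S cells under DMSO the order was the same, with BOK and BAX overlapping. The order of BOK and BAX rests on the length used, because with the longest transcript in place of all annotated exon BAX (51.7% of the effector sum in control DMSO libraries) stood above BOK (33.3%).

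**Figure D1:**
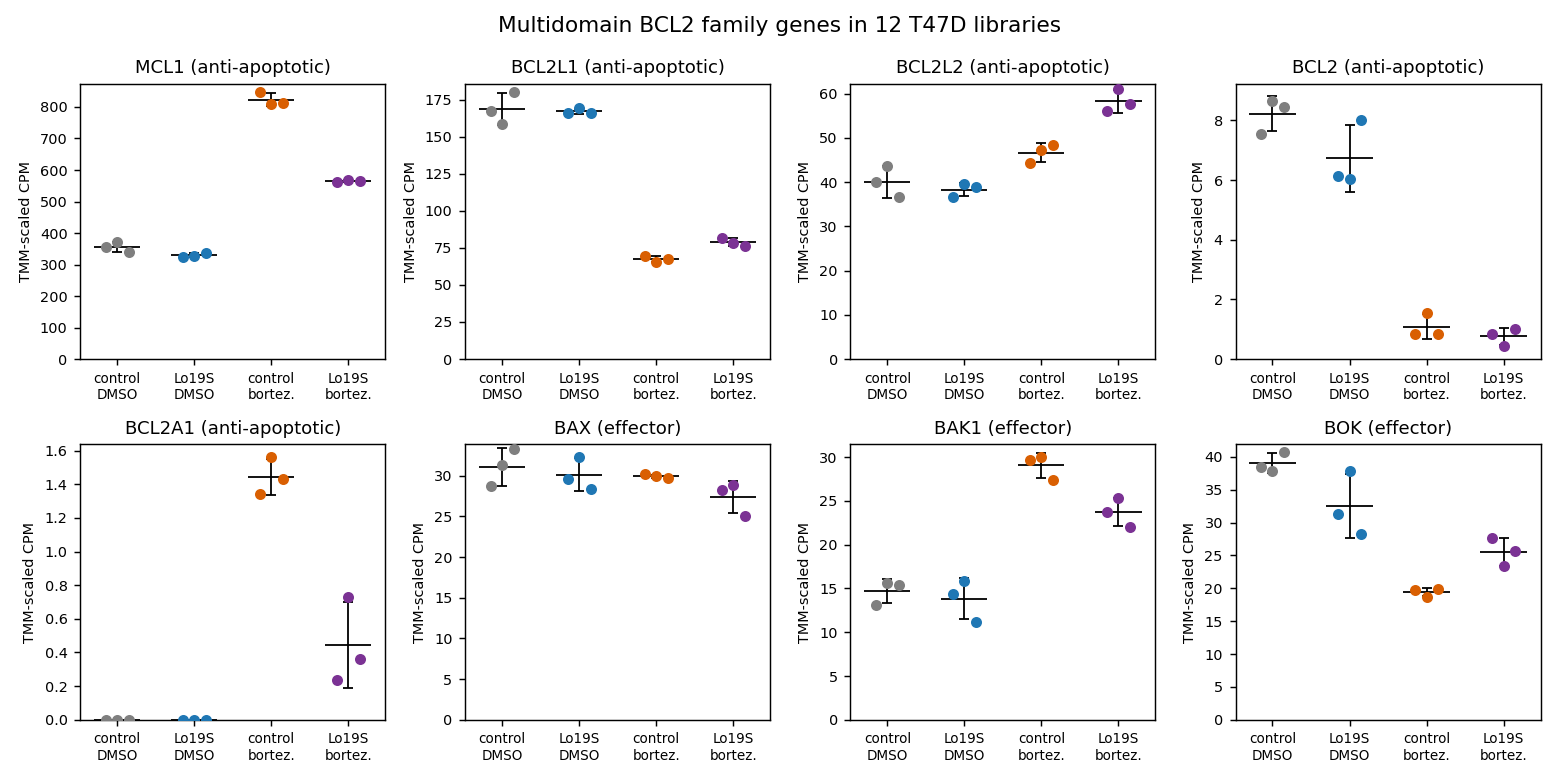
TMM-scaled CPM (vertical axes, each starting at 0) of the 8 genes in the 12 libraries, with 3 points per group, the mean as a horizontal line and the SD as an error bar. MCL1 rises from 341 to 371 CPM in control DMSO libraries to 809.5 to 848 with bortezomib but only to 561 to 567 in Lo19S cells, BCL2L1 and BCL2 fall in both states, and BAX stays between 25.1 and 33.4 CPM in every library.

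Under DMSO, Lo19S cells were compared with control cells to ask whether the family differed between the states without bortezomib. In Lo19S cells 2 members were called, both lower and by little: MCL1 (log2 -0.11, SE 0.035, adjusted p = 0.0164) and BOK (log2 -0.26, SE 0.077, adjusted p = 0.0099). These 2 of 8 stand beside 24.7% of all genes tested that were called in this comparison, 11.7% higher and 13% lower. MCL1 was at 356, 371 and 341 CPM in control libraries and at 324, 328 and 337 in Lo19S libraries, close but without overlap. BOK was at 38.5, 37.9 and 40.8 CPM against 31.3, 37.9 and 28.3, so the second Lo19S library reached the lowest control library. Both calls were sensitive to single libraries. The MCL1 call was lost without the second control library (adjusted p = 0.113) or without the first (0.0801) or second (0.062) Lo19S library, and when only these 2 groups were fitted (0.0919), and the BOK call was lost without the first (0.0692) or the third (0.12) Lo19S library.

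The other members did not pass the test under DMSO. BCL2 was at 7.55, 8.66 and 8.46 CPM in control libraries and at 6.14, 6.02 and 8.02 in Lo19S libraries, which overlap (log2 -0.30, 95% interval -0.59 to -0.01, adjusted p = 0.129). For BCL2L1 the interval was narrow, -0.10 to 0.07 around -0.01, and for BCL2L2 it ran from -0.20 to 0.07. Those of BAX (-0.19 to 0.11) and BAK1 (-0.28 to 0.15) also held 0. BCL2A1 had 0 counts in all 6 DMSO libraries, which allows up to 3 counts over each group, and has no fold. The median log2 fold change was -0.089 over the 4 anti-apoptotic members with a fold and -0.065 over the effectors, beside -0.004 over all genes.

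Bortezomib changed the make-up of the family in control cells. MCL1 rose 2.31-fold and BAK1 1.99-fold, BCL2A1 was detected only with the drug, BCL2L1 and BOK fell and BCL2 fell furthest, while BAX did not pass the test. In all, 4 members were called higher and 3 lower of 8, or 3 and 3 of 7 without BCL2A1. The background was high, since 81.4% of all genes were called, 39.2% higher and 42.2% lower, so the count says little and the sizes are given instead. The median of the absolute log2 change over all genes was 0.714. Scaling mattered here for all sizes and for the direction of small changes. With library totals in place of TMM the median of all genes was -0.424 in control cells and -0.31 in Lo19S cells, against -0.043 and -0.022. In control cells MCL1 was then at log2 0.83 against 1.21 with TMM, BAK1 at 0.61 against 0.99 and BCL2L1 at -1.71 against -1.32. In Lo19S cells MCL1 was at 0.49 against 0.78. Changes are stated on the TMM scale, and the direction was the same with library totals unless said otherwise.

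MCL1 reached 848, 809.5 and 814 CPM in control cells with bortezomib, above every other group (log2 1.21, SE 0.035, adjusted p = 1.91e-33, 2.31-fold). BCL2A1, which encodes the NF-kappaB-responsive protein BFL-1, had 11, 14 and 12 counts there (1.34, 1.56 and 1.43 CPM). Against 0 counts in the 3 control DMSO libraries, with a floor of 3 counts over the group, its 37 counts put it at least 16.8-fold higher, or at least 11.8-fold at the lower end of their 95% counting interval. No test is given for BCL2A1, which passed the filter on low counts only through the libraries where it is high. As a gene of blood cells it was set beside 6 leukocyte markers, whose summed level was 0.953 to 1.78 CPM in these libraries and 1.21 to 2.33 in control DMSO libraries. Of these markers CD3E had 0 counts in all libraries, LYZ had 1 count in all, and PTPRC, which marks all leukocytes, had 1 count over the 3 control bortezomib libraries. CD14, a monocyte marker, had 16 counts there against 2 under DMSO. The part of these cells in the BCL2A1 counts was not tested.

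BCL2L2, which encodes BCL-w, was at 44.2, 47.3 and 48.4 CPM with bortezomib against 40.0, 43.7 and 36.5 with DMSO. The groups were separate by a narrow gap and the call was higher (log2 0.22, SE 0.069, adjusted p = 0.00331), but with library totals the same gene was called lower (log2 -0.16, adjusted p = 0.0287), and without the filter on low counts it was not called (adjusted p = 0.0843). In the reference annotation 19.4% of its exon bases are shared with the read-through gene BCL2L2-PABPN1, which had 28 counts over all 12 libraries.

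Of the anti-apoptotic members that fell, BCL2L1 went from 167, 159 and 180.0 CPM to 69.4, 65.3 and 67.3 (log2 -1.32, SE 0.050, adjusted p = 2.34e-28), which is 2.505-fold lower. The annotated antisense gene ABALON covers 43.0% of its exon bases and was not analysed here, so that antisense reads could be among its counts if strand was ignored. BCL2 went from 7.55, 8.66 and 8.46 CPM to 0.855, 1.56 and 0.834, a 7.41-fold fall (log2 -2.89, SE 0.234, adjusted p = 1.11e-15). With bortezomib BCL2 rested on 7, 14 and 7 counts, so its level there is known only roughly. No library of one treatment overlapped the other for either gene.

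Among the effectors, BAK1 was at 29.7, 30.1 and 27.4 CPM with bortezomib against 13.1, 15.6 and 15.4 with DMSO (log2 0.99, SE 0.099, adjusted p = 9.4e-13). BOK moved the other way, to 19.8, 18.7 and 19.9 CPM from 38.5, 37.9 and 40.8 (log2 -1.01, SE 0.089, adjusted p = 3.07e-14), a 2.01-fold fall. BAX was at 30.2, 29.9 and 29.8 CPM, inside the range of 28.7 to 33.4 under DMSO (log2 -0.05, 95% interval -0.21 to 0.11, adjusted p = 0.568). With library totals BAX was called lower (log2 -0.43, adjusted p = 3.21e-06), about as much as the median gene on that scale.

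The promoters of the members that rose or fell were set side by side with that of BAX, because these groups moved apart under one drug. RefSeq promoters were at hand for 6 of the 8 members, not for MCL1 or BCL2L2, and all are shown as the 250 bases before the annotated start, 5′ to 3′ on the gene's strand, in build GRCh38.p14. BCL2A1 (chr15:79971197-79971446, minus strand) and BAK1 (chr6:33580277-33580526, minus strand) were higher with bortezomib, BCL2L1 (2 annotated starts, chr20:31723964-31724213 and chr20:31722869-31723118, minus strand), BCL2 (chr18:63319770-63320019, minus strand) and BOK (chr2:241558495-241558744, plus strand) fell, and BAX (chr19:48954625-48954874, plus strand) did not pass the test. Capitals mark matches, on either strand, to the motifs named below.
BCL2A1: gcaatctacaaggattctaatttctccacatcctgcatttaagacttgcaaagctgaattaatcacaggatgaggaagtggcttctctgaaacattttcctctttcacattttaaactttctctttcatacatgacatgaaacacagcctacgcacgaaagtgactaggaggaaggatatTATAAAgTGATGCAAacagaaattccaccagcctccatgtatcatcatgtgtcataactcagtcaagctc
BAK1: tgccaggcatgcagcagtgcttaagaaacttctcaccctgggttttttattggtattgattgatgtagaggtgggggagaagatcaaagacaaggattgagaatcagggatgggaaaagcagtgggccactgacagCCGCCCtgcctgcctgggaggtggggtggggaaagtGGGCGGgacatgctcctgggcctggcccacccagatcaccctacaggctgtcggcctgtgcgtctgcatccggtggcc
BCL2: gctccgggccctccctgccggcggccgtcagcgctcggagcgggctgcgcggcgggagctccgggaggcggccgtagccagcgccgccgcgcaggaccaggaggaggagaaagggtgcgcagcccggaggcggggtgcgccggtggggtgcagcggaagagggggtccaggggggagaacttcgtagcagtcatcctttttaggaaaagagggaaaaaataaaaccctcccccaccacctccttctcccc
BCL2L1 start 1: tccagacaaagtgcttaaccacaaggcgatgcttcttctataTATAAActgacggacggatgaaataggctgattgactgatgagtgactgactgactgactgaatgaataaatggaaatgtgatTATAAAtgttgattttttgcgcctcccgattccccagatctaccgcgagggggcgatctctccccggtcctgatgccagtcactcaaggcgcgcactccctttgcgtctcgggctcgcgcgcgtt
BCL2L1 start 2: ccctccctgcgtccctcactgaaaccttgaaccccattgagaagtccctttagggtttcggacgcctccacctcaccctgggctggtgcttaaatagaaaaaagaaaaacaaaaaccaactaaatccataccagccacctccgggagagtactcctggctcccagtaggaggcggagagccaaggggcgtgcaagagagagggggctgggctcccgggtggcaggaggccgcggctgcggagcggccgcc
BOK: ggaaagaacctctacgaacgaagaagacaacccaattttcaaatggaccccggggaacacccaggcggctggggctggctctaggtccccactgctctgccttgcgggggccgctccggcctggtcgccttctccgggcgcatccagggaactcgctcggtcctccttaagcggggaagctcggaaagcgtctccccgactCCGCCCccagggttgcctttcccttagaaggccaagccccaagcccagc
BAX: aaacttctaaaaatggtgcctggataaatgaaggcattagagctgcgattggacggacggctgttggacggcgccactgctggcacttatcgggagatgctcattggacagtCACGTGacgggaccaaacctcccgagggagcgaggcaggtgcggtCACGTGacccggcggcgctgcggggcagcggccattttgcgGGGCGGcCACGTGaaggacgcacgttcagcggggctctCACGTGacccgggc

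Motifs were chosen after these sequences had been seen, and a match is a description of letters. BCL2A1 held the C/EBP-ATF composite element TGATGCAA, which starts 63 bases before the gene's start, just downstream of a TATA box (TATAAA, 70 bases before) and without overlap. Of 35116 RefSeq promoters 0.772% held the composite element and 10.7% a TATA box in the same window. TATAAA also occurred upstream of the first start of BCL2L1, 208 and 125 bases before it, and the second start of BCL2L1 had no match to any motif searched. The E-box CACGTG occurred at 4 places in BAX, 138, 93, 45 and 14 bases before the start, 3 of them inside the longer form TCACGTGA, where 6.34% of promoters held CACGTG and 0.854% the longer form at least once. The GC box GGGCGG, present in 42.6% of promoters, occurred in BAK1 at 2 places and in BOK and BAX at 1 each. BCL2 held none of the motifs searched in this window, and none of the promoters shown held an AP-1 site (TGANTCA, 6.57% of promoters), a heat shock element core (0.441%), an NF-kappaB site (0.527%) or a cyclic AMP response element (TGACGTCA, 1.65%).

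In Lo19S cells bortezomib raised 4 of 8 members, MCL1, BCL2L2, BCL2A1 and BAK1, and lowered 3, BCL2L1, BCL2 and BOK, or 3 and 3 of 7 without BCL2A1. Here 77.5% of all genes were called, 37.8% higher and 39.7% lower. MCL1 went from 324, 328 and 337 CPM to 561, 567 and 566 (log2 0.78, SE 0.035, adjusted p = 4.16e-25). BCL2L2 went from 36.6, 39.5 and 38.8 CPM to 56.0, 61.01 and 57.6, without overlap (log2 0.60, SE 0.066, adjusted p = 2.17e-11). BCL2A1 had 2, 5 and 5 counts after 0 in every Lo19S DMSO library, at least 4.61-fold higher for the summed 12 counts. Their 95% counting interval ran from 6.20 to 21.0, and at its lower end the bound is 2.38-fold.

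BCL2L1 fell from 166, 169 and 166 CPM to 81.7, 78.6 and 76.4 in Lo19S cells (log2 -1.09, SE 0.049, adjusted p = 3.08e-25). BCL2 fell from 6.14, 6.02 and 8.02 CPM to 0.836, 0.439 and 1.01 (log2 -2.99, SE 0.252, adjusted p = 5.63e-15), the last 3 values resting on 7, 3 and 14 counts. For both genes all 3 treated libraries lay below every Lo19S DMSO library, although BCL2L1 stayed the second highest member per kilobase.

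The effector BAK1 rose from 14.4, 15.8 and 11.2 CPM to 23.8, 25.3 and 22.1 (log2 0.75, SE 0.102, adjusted p = 8e-09). BOK fell from 31.3, 37.9 and 28.3 CPM to 27.6, 23.4 and 25.6, with the nearest libraries close together (log2 -0.35, SE 0.085, adjusted p = 0.000282). BAX was at 28.3, 28.8 and 25.1 CPM against 29.6, 32.4 and 28.4, overlapping (log2 -0.16, 95% interval -0.32 to 0.00, adjusted p = 0.066). BAX lay near the threshold here, and it was called lower with library totals (log2 -0.45, adjusted p = 2.23e-06), without the filter (0.0318), without the third control DMSO library (0.0348), without the third Lo19S DMSO library (0.0446) and when only these groups were fitted (0.0295).

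**Figure D2:**
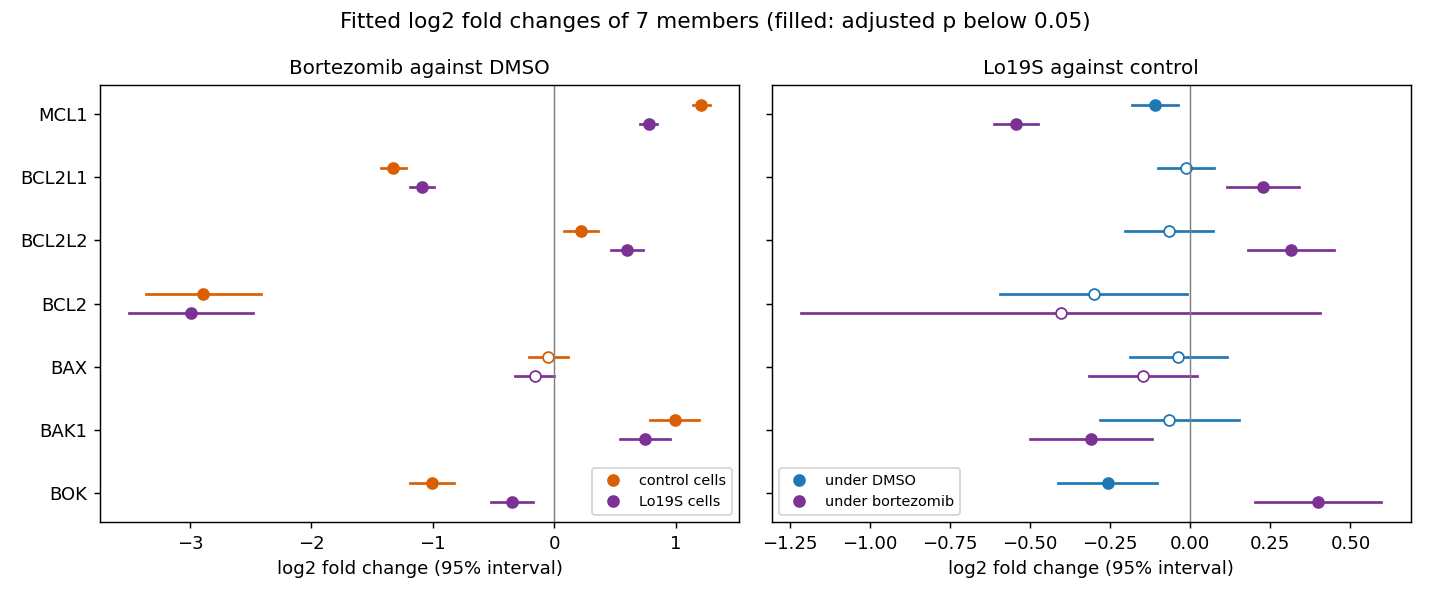
Fitted log2 fold changes (horizontal axes) with 95% intervals of 7 members, BCL2A1 left out because its DMSO groups are at 0 counts. Left, bortezomib against DMSO in control cells (orange) and Lo19S cells (purple), and right, Lo19S against control under DMSO (blue) and under bortezomib (purple), with filled points for adjusted p below 0.05. Every called response of Lo19S cells except those of BCL2 and BCL2L2 is nearer to 0 than that of control cells, and the BCL2L2 response of control cells (log2 0.22) reverses with library totals (log2 -0.16).

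Under bortezomib, Lo19S and control cells were compared directly, and 6 of 8 members were called, 3 higher and 3 lower in Lo19S cells, or 3 and 2 of 7 without BCL2A1, where 43.1% of all genes were called, 22% higher and 21.2% lower. MCL1 was lower by 0.54 on the log2 scale (log2 -0.54, SE 0.034, adjusted p = 2.45e-18), with Lo19S libraries at 561 to 567 CPM and control libraries at 809.5 to 848. BCL2A1 had 37 counts in control and 12 in Lo19S libraries, and its highest Lo19S library at 0.732 CPM lay under the lowest control library at 1.34. Beside it, CD14 had 4 counts in the Lo19S bortezomib libraries and 16 in control, PTPRC 5 and 1. BAK1 was lower at 22.1 to 25.3 against 27.4 to 30.1 CPM (log2 -0.31, SE 0.094, adjusted p = 0.00619), a call lost with library totals (0.0793) and without the third Lo19S bortezomib library (0.0775).

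BCL2L1, BCL2L2 and BOK were higher in Lo19S than in control cells under bortezomib. BOK was at 23.4 to 27.6 against 18.7 to 19.9 CPM (log2 0.40, SE 0.098, adjusted p = 0.000832), so its order between the states was the reverse of that under DMSO. BCL2L2 was at 56.0 to 61.01 against 44.2 to 48.4 CPM (log2 0.31, SE 0.067, adjusted p = 0.000126), and BCL2L1 at 76.4 to 81.7 against 65.3 to 69.4 CPM (log2 0.23, SE 0.056, adjusted p = 0.00086). None of these 3 overlapped between the states. BCL2 (log2 -0.40, 95% interval -1.21 to 0.41) and BAX (log2 -0.15, 95% interval -0.32 to 0.02) did not pass the test, and the wide interval of BCL2 allows a difference of more than 2-fold. With single libraries left out its value ran from -0.72 (without the third Lo19S bortezomib library) to -0.03 (without the second control bortezomib library).

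Whether the response to bortezomib differed between the states (response of Lo19S cells minus that of control cells) was tested as an interaction, which 27.8% of all genes passed, 14.4% higher and 13.4% lower. It passed for 4 of the 7 members for which it could be fitted. The rise of MCL1 was smaller in Lo19S cells by 0.43 on the log2 scale (log2 -0.43, SE 0.049, adjusted p = 1.09e-09), and the fall of BOK was smaller by 0.66 (SE 0.125, adjusted p = 5.55e-05). The fall of BCL2L1 was smaller by 0.24 (SE 0.071, adjusted p = 0.00855), while the rise of BCL2L2 was larger by 0.38 (SE 0.095, adjusted p = 0.00176), although BCL2L2 was called lower in control cells with library totals. For BAK1 (log2 -0.25, 95% interval -0.53 to 0.04), BAX (-0.11, -0.34 to 0.12) and BCL2 (-0.10, -0.94 to 0.73) no difference passed, and for BCL2A1 the interaction could not be fitted, since both DMSO groups were at 0. These comparisons share libraries, so their values are given side by side and no overlap between them is counted as a result.

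Ratios between members within a library do not depend on the scaling of libraries. MCL1 to BCL2L1, per kilobase, was 1.61 ± 0.17 (SD, n = 3) in control and 1.498 ± 0.040 in Lo19S cells under DMSO, overlapping, and 9.28 ± 0.12 against 5.43 ± 0.21 under bortezomib, well apart. BAK1 to BAX was 0.553 ± 0.028 and 0.534 ± 0.063 under DMSO and 1.13 ± 0.051 and 1.01 ± 0.026 under bortezomib, where the lowest control library, at 1.08, lay above the highest Lo19S library, at 1.03. BCL2L1 to BAX went from 4.24 ± 0.29 to 1.75 ± 0.049 in control cells and from 4.33 ± 0.24 to 2.25 ± 0.12 in Lo19S cells, with no library of one treatment inside the range of the other. With 3 libraries a group an exact two-sided permutation test cannot go below 0.10, so these ratios carry no test.

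As shares of the summed anti-apoptotic level per kilobase, MCL1 made up 57.1 ± 2.0% and 55.7 ± 0.58% in control and Lo19S cells under DMSO. With bortezomib it made up 85.2 ± 0.35% in control cells and 77.2 ± 0.43% in Lo19S cells, outside the library spread of each other and of DMSO. BCL2L1 went from 35.7 ± 2.5% to 9.18 ± 0.12% in control cells and from 37.2 ± 0.62% to 14.2 ± 0.50% in Lo19S cells. BCL2L2 held 6.71 ± 0.55% and 6.74 ± 0.20% under DMSO against 5.04 ± 0.33% and 8.30 ± 0.31% with bortezomib. BCL2 was at most 0.511% in any library, and BCL2A1 reached 0.600 ± 0.057% in control cells with bortezomib.

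Within the effectors BAX kept a share between 33.3% and 41.5% in all 12 libraries, or 48.5% and 57.1% with the longest transcript as length. BAK1 and BOK exchanged places: BAK1 went from 20.1 ± 1.2% to 41.2 ± 1.4% in control cells and from 20.8 ± 1.5% to 34.9 ± 1.6% in Lo19S cells, and BOK from 43.6 ± 1.7% to 22.5 ± 0.99% and from 40.0 ± 1.3% to 30.7 ± 2.6%. On the TMM scale the summed effector level was 33.1 ± 1.8 and 29.9 ± 3.6 CPM per kb under DMSO and 31.9 ± 0.60 and 30.7 ± 1.4 with bortezomib, all overlapping. The summed anti-apoptotic level on that scale was 143 ± 1.2 and 136 ± 1.8 CPM per kb under DMSO and 221 ± 4.8 and 167 ± 1.1 with bortezomib. Unlike ratios within a library, these sums depend on the scaling of libraries, and they were not computed with library totals. With library totals the median log2 response of the effectors was -0.431 in control cells and -0.448 in Lo19S cells, against -0.049 and -0.159 with TMM. The ratio of the sums went from 4.32 ± 0.24 to 6.94 ± 0.13 in control cells without overlap, and in Lo19S cells it was 4.58 ± 0.57 under DMSO and 5.45 ± 0.25 with bortezomib, the nearest libraries being 5.17 and 5.23.

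**Figure D3:**
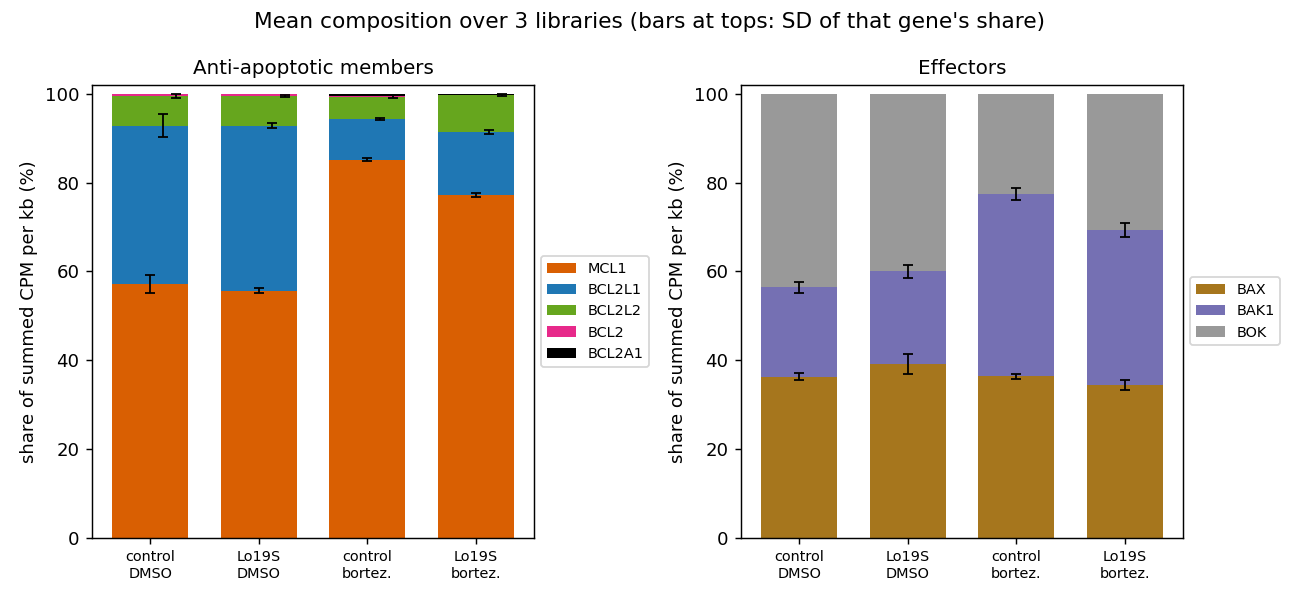
Mean share (vertical axis, percent) of each gene in the summed CPM per kb of the 5 anti-apoptotic members (left) and the 3 effectors (right) in the 4 groups, with error bars for the SD of a gene's share over 3 libraries. MCL1 has 57.1% under DMSO and 85.2% with bortezomib in control cells and 55.7% and 77.2% in Lo19S cells, with a smaller BCL2L1 share under the drug, and BAX has 36.3% to 39.2% under DMSO and 34.4% to 36.3% with bortezomib.

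The genes whose profile lay nearest to a member, by the root mean square difference of centred log2 CPM over the 12 libraries, were UGDH (0.041) and PDRG1 (0.052) for MCL1 and MRPL41 (0.055) and TLE5 (0.061) for BCL2L1. For BCL2L2 they were SLC27A6 (0.058) and USP25 (0.061), and for BAX PPP4C (0.055) and HNRNPA0 (0.056). BAK1 was nearest to MFSD9 (0.101) and ATG16L1 (0.105), and BOK to PXK (0.107) and LIMK2 (0.119). BCL2, with its few counts, was less closely matched, to CSPG5 (0.234) and F12 (0.24), and BCL2A1 was nearest to RUBCNL (0.162) and ROBO4 (0.195), all in log2 units. Because BCL2A1 had no count in any DMSO library, its profile there was set only by the prior count added before log2, so its nearness says little. None of these 16 genes is a member.

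The counts called with bortezomib in the lists that follow stand beside 39.2% of all genes higher and 42.2% lower in control cells, and 37.8% and 39.7% in Lo19S cells. Counts with library totals stand beside 3717 genes higher and 8452 lower of 14714 in control cells, and 3731 and 7918 in Lo19S cells. Of the genes that act on or beside the family, the BH3-only genes, which trigger it, moved in both directions. Under bortezomib 4 of 8 rose and 2 fell in control cells, or 4 and 3 with library totals, and 3 rose and 4 fell in Lo19S cells. PMAIP1, which encodes the MCL1-binding NOXA, rose most in both states (log2 3.67, SE 0.122, and 3.18, SE 0.145) and was lower in Lo19S than in control cells under bortezomib (log2 -0.90, SE 0.089, adjusted p = 7.44e-12). BMF fell most (log2 -4.26, SE 0.330, and -2.65, SE 0.249) and rested on 8 and 28 counts in the bortezomib groups, and its difference of responses passed in edgeR (adjusted p = 0.0238) but not in DESeq2 (0.0523). Among the BH3-only genes called for the difference of responses, the lowest was BCL2L11, which encodes BIM (log2 -0.48, SE 0.133, adjusted p = 0.0051). Under DMSO 2 of 8 were lower in Lo19S cells, HRK lowest (log2 -0.97, SE 0.361, adjusted p = 0.0433), and both calls were lost with DESeq2 (0.102 for HRK). The list's median log2 fold change was 0.316 in control cells, or -0.066 with library totals, and -0.02 in Lo19S cells, beside -0.043 and -0.022 over all genes.

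Of 7 other BCL2-like genes 4 were tested, and 3 rose and 1 fell with bortezomib in each state. BCL2L13, an outer membrane protein that also acts in mitophagy, rose most (log2 1.41, SE 0.051, in control and 1.07, SE 0.049, in Lo19S cells) and was already higher in Lo19S cells under DMSO (log2 0.42, SE 0.054, adjusted p = 1.78e-08). BCL2L12 fell (log2 -0.98, SE 0.110, and -0.77, SE 0.113). Its call under DMSO (log2 -0.28, adjusted p = 0.0275) was lost without the third control library (0.272).

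Downstream of the pore, 4 of 9 apoptosome and mitochondrial death genes rose and 4 fell in control cells, and 3 and 3 in Lo19S cells, against 1 and 5 and then 1 and 7 with library totals. ENDOG, a mitochondrial nuclease, fell most in both states (log2 -1.92, SE 0.107, in control and -1.87, SE 0.103, in Lo19S cells). CASP9, the initiator caspase of the apoptosome, was higher in Lo19S than in control cells under bortezomib (log2 0.89, SE 0.180, adjusted p = 6.15e-05). Among the genes of this list called for the difference of responses, the highest was APAF1, which encodes the apoptosome's scaffold (log2 0.51, SE 0.120, adjusted p = 0.000928).

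Among 5 tested inhibitors of apoptosis of 7, 4 rose and 1 fell in each state, or 2 and 1 with library totals. BIRC2, a ubiquitin ligase of this family, rose most (log2 1.06, SE 0.047, in control and 0.81, SE 0.047, in Lo19S cells), and BIRC5, which encodes survivin and is expressed mainly in dividing cells, fell (log2 -2.10, SE 0.055, and -1.75, SE 0.056). Lo19S cells also had less BIRC5 under DMSO (log2 -0.39, SE 0.045, adjusted p = 1.09e-09). Of 8 partners at the outer membrane and endoplasmic reticulum, 3 rose and 4 fell in control cells and 2 and 5 in Lo19S cells, or 2 and 6 in each with library totals. VDAC2, a channel that holds BAK at mitochondria, was the highest (log2 1.03, SE 0.057, and 0.75, SE 0.059) and ITPR1, a calcium release channel, the lowest (-1.47, SE 0.105, and -1.17, SE 0.103).

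Of 7 enzymes that add or remove ubiquitin on MCL1, 5 were called higher and 2 lower with bortezomib in control cells, and 4 and 1 in Lo19S cells, or 4 and 3 and then 4 and 2 with library totals. The ligase gene MARCHF5 was highest (log2 1.18, SE 0.048, and 1.06, SE 0.048) and USP13, a deubiquitinase, lowest (-1.20, SE 0.052, and -0.60, SE 0.049). The USP13 responses differed by 0.60 (SE 0.072, adjusted p = 4.2e-09). Of 8 transcription factors known to act on members, 6 were higher and 2 lower with bortezomib in control cells, 3 and 5 with library totals, and 5 and 2 in Lo19S cells, or 5 and 3. ATF4 was highest (log2 1.33, SE 0.043, and 1.10, SE 0.044) and PGR, the progesterone receptor, lowest (-4.44, SE 0.046, and -3.03, SE 0.041), and ESR1 was lowest under DMSO in the Lo19S state (log2 -0.28, SE 0.039). PGR responses differed by 1.42 (SE 0.063) and those of ATF4 by -0.23 (SE 0.062, adjusted p = 0.00346, and 0.0835 with library totals). The part of any of these genes in the changes of the members was not tested.

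Between the states under DMSO 24.7% of all genes were called. Higher and lower in Lo19S cells were 0 and 2 of the BH3-only genes, 2 and 1 of the other BCL2-like genes, 0 and 2 of the apoptosome genes, 1 and 1 of the inhibitors of apoptosis, 0 and 2 of the partners, 1 and 0 of the MCL1 enzymes and 0 and 2 of the transcription factors. Under bortezomib they were, in the same order of lists, 2 and 3, 2 and 0, 3 and 3, 0 and 1, 2 and 4, 3 and 1, and 3 and 2. These stand beside 22% of all genes higher and 21.2% lower. The difference of responses passed for 2 and 1, 0 and 1, 2 and 3, 1 and 1, 2 and 4, 1 and 0, and 3 and 2, beside 14.4% of all genes higher and 13.4% lower. With library totals it passed for 3 and 1, 1 and 1, 3 and 2, 1 and 0, 3 and 0, 1 and 0, and 5 and 0. On that scale 3331 of all 14714 genes were higher and 1257 lower, so the background shifted as well. ITPR2 differed most upward among the partners (log2 0.63, SE 0.090, adjusted p = 2.35e-07). The median log2 response to bortezomib of the lists in control cells was 0.316, 0.731, 0.055, 0.56, -0.079, 0.458 and 0.205, beside -0.043 over all genes, and in Lo19S cells -0.02, 0.859, -0.079, 0.585, -0.215, 0.436 and 0.415, beside -0.022. With library totals the control medians were -0.066, 0.35, -0.326, 0.18, -0.46, 0.077 and -0.176, beside -0.424.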

How the data were processed

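Polyadenylated RNA of 12 T47D libraries, made with a stranded kit per the labels' protocols, was counted per gene, and groups were taken from the sample titles. The deposited files hold whole-number read counts per Ensembl gene, not normalized by the authors, 1 file per library, with every row naming a gene. STAR 2.5.4b, featureCounts 1.6.1 and build GRCh37 are named in the submitters' processing notes, without roles. How strand and multi-mapping reads were handled was not given in the sources used here. Symbols came from an identifier table that matched 51996 identifiers.

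Counts were filtered with filterByExpr, scaled with TMM factors and fitted over all 12 libraries with 1 coefficient per group, with edgeR 4.0.16 (R 4.3.3; quasi-likelihood, robust), after the script was tested on simulated data. Each SE, an approximation, was obtained by dividing the size of the log2 fold change by the root of F. Exon lengths came from GENCODE release 29, made for GRCh38, and were used for lengths and overlaps only. Floors (3 counts) and counting intervals (95%) cover counting error only. Alternatives were library totals, DESeq2 1.42.0, other filters, a replicate block, the groups compared alone, and leaving out each library. Counts for the pathway lists with library totals, DESeq2 or without control DMSO replicate 3 were added after seeing the data. Named are the 8 members, PSMD2, the called gene with the highest and the lowest log2 fold change of each pathway list in a comparison, markers, and the 2 genes of nearest profile (log2 CPM with a prior count of 2). Some named genes are not reported here. Members, lists and tests were chosen with earlier results of these data known.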

Additional observations from a re-analysis of the deposited data

Results flagged for a closer look

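For 4 members the bortezomib response differed between Lo19S and control cells by the interaction test of edgeR with Benjamini-Hochberg adjustment. Lo19S minus control, the log2 difference was -0.43 for MCL1, 0.66 for BOK, 0.38 for BCL2L2 and 0.24 for BCL2L1. Each difference had the same sign in all alternatives run, with adjusted p between 1.52e-19 and 3.01e-07 for MCL1, 7.41e-07 and 0.000567 for BOK, 1.29e-05 and 0.00987 for BCL2L2 and 0.000236 and 0.0364 for BCL2L1.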

How the results depend on the processing

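Of 26 member changes that were called, 463 alternatives gave 453 calls in the same direction, 9 lost calls and 1 reversal, and 12 changes that were not called were called in 6 alternatives. The called changes and the counts of members in this section include BCL2A1 with bortezomib. It passed the filter on low counts only through those libraries, so agreement between alternatives adds nothing for its calls. The reversal was BCL2L2 with bortezomib in control cells, at -0.16 with library totals. Changes that were not called changed sign for BCL2L1 under DMSO (0.0047 with library totals, and -0.0561 to 0.0325 over the libraries left out, highest without control DMSO replicate 3), for BAX under DMSO (-0.1003 to 0.0149) and with bortezomib in control cells (-0.1113 to 0.0032), both highest without that same library, for BAK1 under DMSO (-0.1709 to 0.0458, highest without Lo19S DMSO replicate 3), and for the BCL2 difference of responses (-0.4208 to 0.2696), which was above 0 without Lo19S DMSO replicate 3 (0.0253), control bortezomib replicate 2 (0.2696) or Lo19S bortezomib replicate 2 (0.0944). The count of members called under DMSO was 0 to 2 when single libraries were left out and 1 when only the groups compared were fitted, which tested 7 members, and the cause was not tested. MCL1 shares with the longest transcript as length were 54.1% and 52.6% under DMSO and 83.9% and 75.4% with bortezomib for control and Lo19S cells. With library totals the genes called higher and lower were 3717 and 8452 in control cells with bortezomib (5761 and 6215 with TMM), 3731 and 7918 in Lo19S cells (5561 and 5847), 4920 and 1883 between states under bortezomib (3230 and 3119), and 3331 and 1257 for the difference of responses (2126 and 1968). The filter meant to be stricter kept 14768 genes against 14714 and so was not. Same-numbered libraries did not deviate together (correlations of -0.07 to 0.03), and the replicate block gave 3445, 11922, 11349, 6196 and 3889 genes for the 5 comparisons against 3628, 11976, 11408, 6349 and 4094, with the same 2, 7, 7, 6 and 4 members counted. Depth limits BCL2 and BCL2A1 most, at 14 or fewer counts in each bortezomib library.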
